A study of Rattus norvegicus with 2 samples.

Results

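Kit and 4 transcription factors of the mast cell lineage, Gata1, Gata2, Mitf and Tal1, were followed in RBL-2H3, a line from a rat basophilic leukaemia that serves as a mast cell model. The 5 genes were chosen by symbol from the 15409 gene symbols listed, and all 5 were measured, through 8 of the 20367 listed transcripts. The study sequenced strand-specific libraries of total RNA from 1 culture given normal saline and 1 given fine particulate matter (PM2.5) plus IgE and DNP-HSA, a pair of reagents that crosslinks the high-affinity IgE receptor. The labels name no dose unit or time and do not tell whether IgE and antigen were also given to the saline cells, so whether the contrast holds the particles alone or also the receptor stimulation is unknown. With 1 library per group there is no replicate check, and no test between the conditions was possible.

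Kit is the receptor tyrosine kinase for stem cell factor, on which mast cells depend for survival. Gata1 and Gata2 are zinc finger factors that bind GATA letters. Tal1 is a basic helix-loop-helix factor that pairs with E proteins such as Tcf3 and Tcf12, binds E-box letters and forms complexes with Lmo2, Ldb1 and GATA factors. Mitf is a basic helix-loop-helix leucine zipper factor that also binds E-boxes, is needed for mast cell and melanocyte development, and is made in several isoforms from alternative promoters.

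Levels are normalised counts, the authors' read counts divided by a factor for each library. They are not divided by transcript length, so a higher level in 1 gene does not mean more transcript than in another. The nearest symbols named below have similar counts in the 2 libraries, and nothing more is read from them. Read counts summed over the listed transcripts were 7279671 in the saline and 3964955 in the treated library, so 1 read weighed more in the treated library. These sums need not equal the reads sequenced. Log2 folds are treated over saline on the level plus 1. Each interval is the exact 95% (Clopper-Pearson) range for the ratio of levels and covers counting error only, because reads are not independent molecules and the spread between cultures is unknown. In bulk RNA, fewer cells with a transcript and less of it per cell cannot be told apart. Of 12 mast cell and basophil markers, a list that holds Kit and Gata2, 10 were measured, with a summed level of 31519 in the saline and 29806 in the treated library, and none was at 0 reads. Without Kit and Gata2 the other 8 summed to 12410 in the saline and 14414 in the treated library. Most of that rise was Srgn, at 3472 and 5401, while Hdc was at 2473 and 1178. The log2 fold was above 0 for 6 of these 8, with a median of 0.53. Of 10 macrophage and monocyte markers 5 were measured, with summed levels of 1520 and 836. Most of that sum was Csf1r, at 1215 and 472, and without it the other 4 summed to 305 and 363, with Lyz2 at a log2 fold of 1.40, Cd14 at -0.03, Adgre1 at -0.13 and Cd68 at 0 treated against 19 saline reads. Of 10 fibroblast and epithelial markers 5 were measured, with summed levels of 235 and 325. Most of that sum was Col3a1, at 209 and 277, while Pdgfra was at 0 reads in the saline and Dcn in the treated library. Of 10 lymphocyte markers only Lck was measured, at levels of 20.8 and 36.3. The part of these other markers in the results was not tested.

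E-box letters, which Tal1 and Mitf are known to bind, were looked for in the 250 bases before the RefSeq start of each of the 5 genes (build GRCr8; all 5 matched by symbol), as a description of sequence that the set may share. The motif CANNTG, searched on both strands and including CACGTG, was found in the windows of Kit and Tal1 only, beside 65.5% of 33469 windows of that length. The 3 matches are shown 5′ to 3′ on the gene's strand with 12 bases on each side and the E-box in capitals. The first lies on the minus strand at chr14:32978808-32978837, and the others on the plus strand at chr5:133824299-133824328 and chr5:133824327-133824356.
Kit: ccgcgctccgtgCACTTGggcgagagctgt
Tal1, first: ctggcgtgtgttCATCTGcttccctcctct
Tal1, second: ctggggctggacCATGTGtggtcctgtcca
The Kit match starts 13 bases before the start, and the Tal1 matches start 153 and 125 bases before it. The GATA motif AGATAA, also searched on both strands, was in none of the 5 windows and in 10.3% of all windows, and CACGTG was in none of the 5 and in 5.59% of all. A match or its absence describes only these letters, and the start used in these cells was not analysed here.

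Kit (ENSRNOG00000002227) had a level of 10361 in the saline library, from 11946 reads, and 8985 in the treated library, from 5440 reads. The treated level was the lower, by a log2 fold of -0.21 (interval -0.25 to -0.16), which is a ratio of 0.867. This gap exceeded counting error but was small beside the rest of the transcriptome, where only 18.4% of symbols had a smaller absolute log2 fold. Many of those symbols have low counts and wider folds. Among symbols with a mean level of at least 1000, which include Kit, the median absolute log2 fold was 0.39. The nearest symbols to Kit in the pair of levels, by Euclidean distance on log2(level + 1) over the 2 libraries, were Tkt at a distance of 0.057 and Tubb5 at 0.17.

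The 2 listed Kit transcripts differed in opposite directions. ENSRNOT00000003050, which took most Kit reads in both libraries, was at a level of 8289 in saline and 6600 in treated cells, a log2 fold of -0.33 (interval -0.38 to -0.28). ENSRNOT00000090654 was at 2072 in saline and 2385 in treated cells, a log2 fold of 0.20 (interval 0.11 to 0.30). The share of Kit reads on the first transcript was 80.0% (interval 79.3% to 80.7%) in the saline and 73.5% (interval 72.3% to 74.6%) in the treated library. Such a share does not depend on how the libraries were scaled against each other. Across 1247 symbols with at least 2 transcripts at a level of at least 50 in at least 1 library and with reads in both libraries, the leading saline transcript moved by a median of 12.5 percentage points, so the 6.55 points of Kit lie below the middle of that range. The sources used here do not state how reads common to several transcripts were assigned.

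**Figure D1:**
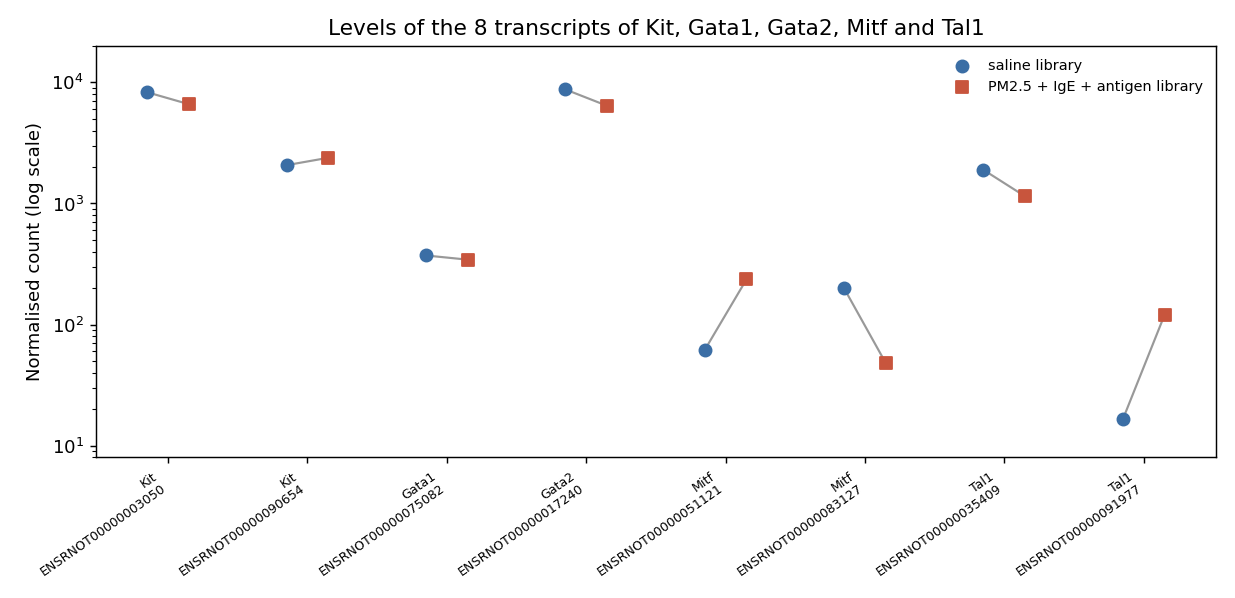
Normalised count (log scale) of each of the 8 transcripts of the 5 genes in the saline library (circles) and in the library from cells given PM2.5, IgE and antigen (squares), 1 library each and no error bars. Lines join the same transcript, and the lines of the 2 Mitf transcripts cross in direction, from 61.6 to 236 and from 199 to 47.9.

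Gata2 (ENSRNOG00000012347), the GATA factor of early progenitors and mast cells, had a level of 8748 in the saline library (10086 reads) and 6407 in the treated library (3879 reads). The treated level was 0.732 times the saline level, a log2 fold of -0.45 (interval -0.50 to -0.40). It is represented by 1 transcript, so no isoform comparison could be made. A near symbol in the pair of levels was Prpf8, at a distance of 0.055.

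Gata1 (ENSRNOG00000047663), the GATA factor of erythroid, megakaryocytic, eosinophil and mast cells, had a level of 372 in the saline library (429 reads) and 344 in the treated library (208 reads). Its log2 fold was -0.11, and the interval of -0.36 to 0.13 held 0, so no difference was detectable at this depth. The interval allows a treated level lower by up to 0.36 or higher by up to 0.13 on the log2 scale. Its 1 transcript lay closest to Ptpn12 (distance 0.021) and Cuta (0.025).

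Tal1 (ENSRNOG00000025051) had a level of 1912 in the saline library (2204 reads) and 1264 in the treated library (765 reads). The treated level was 0.661 times the saline level, and the log2 fold of -0.60 (interval -0.72 to -0.48) had the largest size among the 5 genes. Over all symbols, 49.5% had a smaller absolute log2 fold. Among symbols with a mean level of at least 1000, which include Tal1, the median absolute log2 fold was 0.39. The lower quartile of the log2 folds of those symbols was -0.38, so Tal1 lay below it. Its nearest symbols were Abcc1 at a distance of 0.018 and Stim1 at 0.039.

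The lower Tal1 sum came from its main transcript, ENSRNOT00000035409, at a level of 1895 in saline and 1143 in treated cells. Its log2 fold was -0.73 (interval -0.85 to -0.61). The minor transcript ENSRNOT00000091977 was the higher in treated cells, with 73 reads against 19, levels of 121 and 16.5, and a log2 fold of 2.80 (interval 2.13 to 3.68). The minor transcript held 0.862% of Tal1 reads in saline (interval 0.520% to 1.34%) and 9.54% in treated cells (interval 7.55% to 11.8%). The shift of 8.68 percentage points was larger than that of 41.5% of the 1247 symbols.

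Mitf (ENSRNOG00000008658) had nearly level sums, 261 in the saline library (301 reads) and 284 in the treated library (172 reads). Its log2 fold was 0.12, and the interval of -0.16 to 0.40 held 0. The closest symbols were Fbxw2, at a distance of 0.0083, and Nceh1, at 0.0096.

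That sum joined 2 transcripts that differed in opposite directions by more than 3-fold each. ENSRNOT00000051121 had 71 reads and a level of 61.6 in the saline library, against 143 reads and 236 in the treated library. It was 3.79 times higher there, a log2 fold of 1.92 (interval 1.52 to 2.37). ENSRNOT00000083127 had 230 reads and a level of 199 in the saline library, against 29 reads and 47.9 in the treated library. It was 4.10 times lower, a log2 fold of -2.04 (interval -2.67 to -1.497). The first transcript thus held 23.6% of Mitf reads in saline (interval 18.9% to 28.8%) and 83.1% in treated cells (interval 76.7% to 88.4%). The transcript with most reads was a different one in each library. Which Mitf promoter or protein isoform each identifier stands for was not analysed here.

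**Figure D2:**
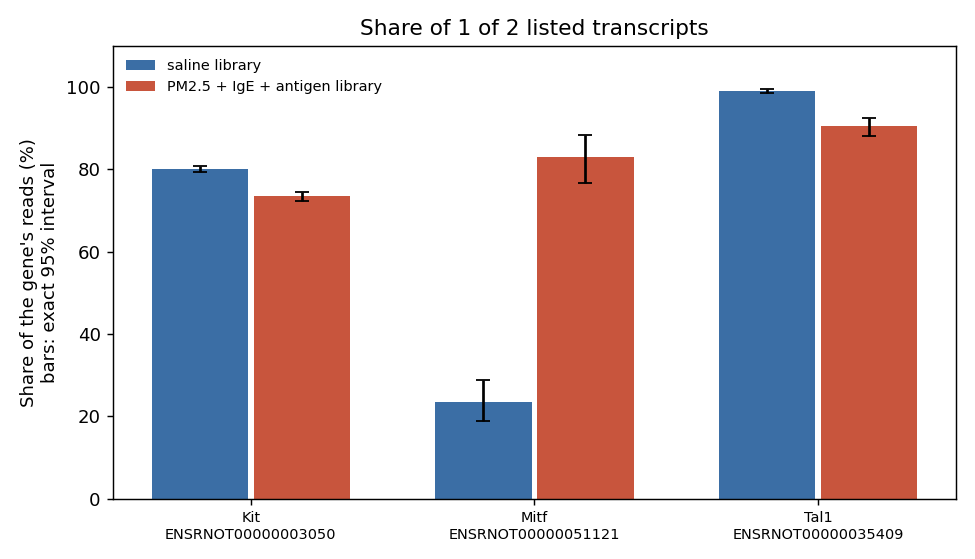
Percent of a gene's reads on 1 of its 2 listed transcripts in the saline and the treated library, with exact 95% intervals that cover counting error only. The Mitf transcript shown went from 23.6% to 83.1%, the Kit transcript from 80.0% to 73.5% and the Tal1 transcript from 99.1% to 90.5%.

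Such exchanges between transcripts were common in these libraries. Of 1249 symbols with at least 2 such transcripts, 2 of which had no reads in 1 library, 21.9% had 1 transcript at least 2-fold higher and another at least 2-fold lower, and 31.5% had another leading transcript in each library. The Mitf shift of 59.6 percentage points was larger than that of 85.3% of symbols. Among the 8 transcripts of the 5 genes, 3 were at least 2-fold apart between the libraries (the Mitf pair and the minor Tal1 transcript), beside 37.9% of all transcripts with a symbol.

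**Figure D3:**
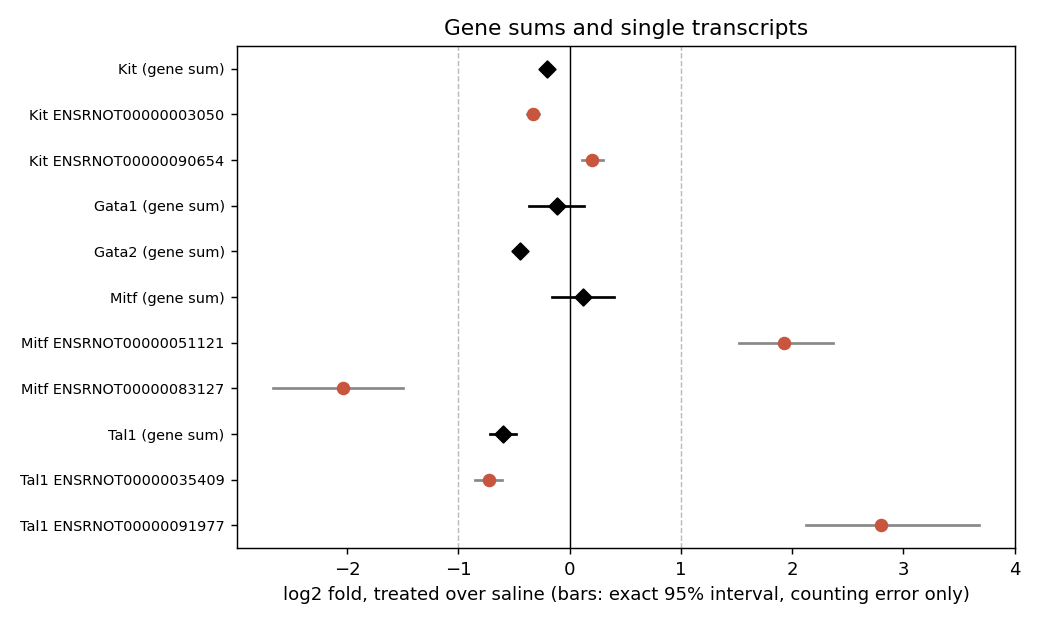
Log2 fold of the treated over the saline library for the gene sums (diamonds) and for single transcripts of Kit, Mitf and Tal1 (circles), with exact 95% intervals and dashed lines at 2-fold. All 5 gene sums lie within 2-fold, while the Mitf transcripts lie at 1.92 and -2.04 and the minor Tal1 transcript at 2.80.

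As gene sums, 0 of the 5 genes differed by 2-fold, beside a background of 31.1% of the 15097 symbols with a level of at least 1 in at least 1 library. The background was 9.3% among the 1140 symbols with a mean level of at least 1000, the range that holds Kit, Gata2 and Tal1. The log2 fold was below 0 for 4 of the 5 genes, Mitf being the exception, and below 0 for 54.3% of all symbols. The order from lowest to highest log2 fold was Tal1, Gata2, Kit, Gata1 and Mitf. The intervals of Tal1 and Gata2 overlapped, as did those of Kit and Gata1 and those of Gata1 and Mitf, whereas those of Gata2 and Kit were apart. The median absolute log2 fold was 0.60 over all symbols and 0.39 over the abundant ones. The signs of the 5 gene folds were the same under 3 other scalings of the libraries.

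**Figure D4:**
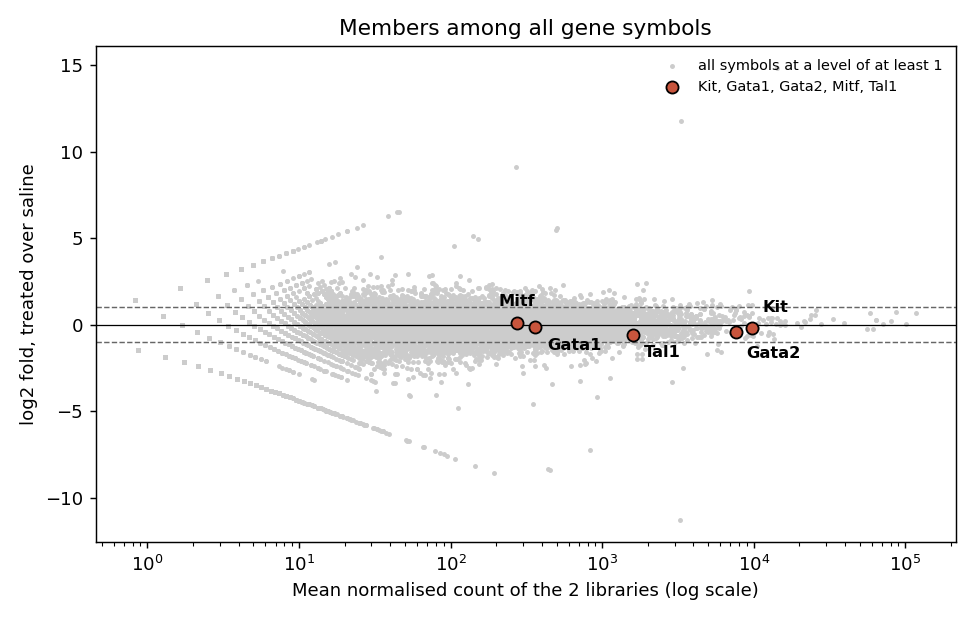
Log2 fold of the treated over the saline library against the mean normalised count (log scale) for every symbol with a level of at least 1, with the 5 genes marked and dashed lines at 2-fold. The 5 genes lie within the cloud between -0.60 and 0.12, and the spread is wider at low counts.

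In the authors' deposited table none of the 8 transcripts was among the 57 that the authors selected, beside 20367 listed transcripts in all. So few were selected that 0 of 8 tells nothing about these genes. That table lists unadjusted p-values of 0.088 for the minor Tal1 transcript and 0.093 for each Mitf transcript, 0.17 for the main Tal1 transcript, 0.31 and 0.58 for the Kit transcripts ENSRNOT00000003050 and ENSRNOT00000090654, 0.22 for Gata2 and 0.77 for Gata1. The lowest adjusted p-value in the authors' deposited table rounds to 0.92, and these 8 lie at or above it.

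The genes around Kit in its signalling pathway were mostly within 2-fold. Of its 24 measured genes, 0 were at least 2-fold higher and 1 at least 2-fold lower, beside 12.1% and 19.1% of all symbols, and the median log2 fold was -0.20 beside -0.07 over all symbols. The lower member was Sh2b3, the adaptor Lnk that restrains Kit and cytokine receptor signalling, with 151 against 871 reads and a log2 fold of -1.59 (interval -1.86 to -1.35). Stap1, an adaptor that binds Kit, was at 0.97 (interval 0.64 to 1.31, 156 against 151 reads). Jak2, a cytokine receptor kinase, was at 0.92 (interval 0.69 to 1.16). Ptpn6, the phosphatase SHP-1 that restrains Kit, was at -0.36, and the transcription factor Stat3 at -0.21. The ligand gene Kitlg was also on this list but was not matched by symbol or synonym.

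Among partners of GATA factors and Tal1, 1 of 24 measured members was at least 2-fold higher and 3 at least 2-fold lower, beside 12.1% and 19.1% of all symbols, with a median log2 fold of -0.09 beside -0.07. Zfpm1, the GATA cofactor FOG-1, was at -1.39 (interval -2.04 to -0.83), with 29 against 147 reads. Cbfa2t3, a corepressor in Tal1 complexes also called ETO2, was at -1.04 (interval -1.39 to -0.72, 97 against 382 reads). Runx1, a core haematopoietic factor and the other lower member, was at -1.04 (interval -1.29 to -0.79) and is named because the count is small, after its value was seen. The intervals of all 3 held -1, so the reads do not fix on which side of 2-fold they lie. The higher member was the histone deacetylase Hdac2, at 1.18, and its interval of 0.88 to 1.48 likewise held 1. The Tal1 partners Lmo2 (0.24), Ldb1 (-0.68), Tcf3 (-0.20) and Tcf12 (0.48), picked as the subunits named above, stayed within 2-fold. The chromatin remodelling ATPase Smarca4 was at -0.40.

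Relatives and regulators of Mitf showed 0 of 17 measured members at least 2-fold higher and 2 at least 2-fold lower, against the same 12.1% and 19.1% of all symbols, with a median log2 fold of -0.26. Tfeb, a close relative of Mitf, had 0 treated against 10 saline reads, which is at least 1.75-fold lower if the treated library is set to a floor of 3 reads. Each fold given as at least uses this floor, and the exact 95% limits allow smaller folds. Lef1, a Wnt pathway factor that acts on Mitf transcription in melanocytes, was at -1.81 (interval -3.44 to -0.67) on 6 against 43 reads. Flcn, which restrains Tfe3 and Tfeb, was at -0.87 (interval -1.18 to -0.58). The kinase Mapkapk2 was at -0.26, and lysyl-tRNA synthetase (Kars), linked to Mitf activity in mast cells, was at 0.34.

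Other haematopoietic transcription factors had 29 measured members, of which 3 were at least 2-fold higher and 5 at least 2-fold lower, close to the 12.1% and 19.1% of all symbols. A library without reads set 4 of these 8 values, and with the floor in its place those 4 did not reach 2-fold. The median log2 fold was -0.23, or -0.07 with such genes at their floor. Id3, an inhibitor of helix-loop-helix factors such as the E proteins, had 0 treated and 39 saline reads, at least 6.83-fold lower, while its relative Id1, named after its value was seen, was at 2.36 (interval 1.98 to 2.79, 191 against 70 reads). Cebpe, a granulocyte factor, had 0 treated and 15 saline reads, at least 2.63-fold lower. The erythroid factor Klf1 had 0 treated and 6 saline reads, and the upper limit of its log2 fold was 0.69, so these reads fix no direction. Klf6 and the ETS factor Elf1 were at 0.57 and 0.85.

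**Figure D5:**
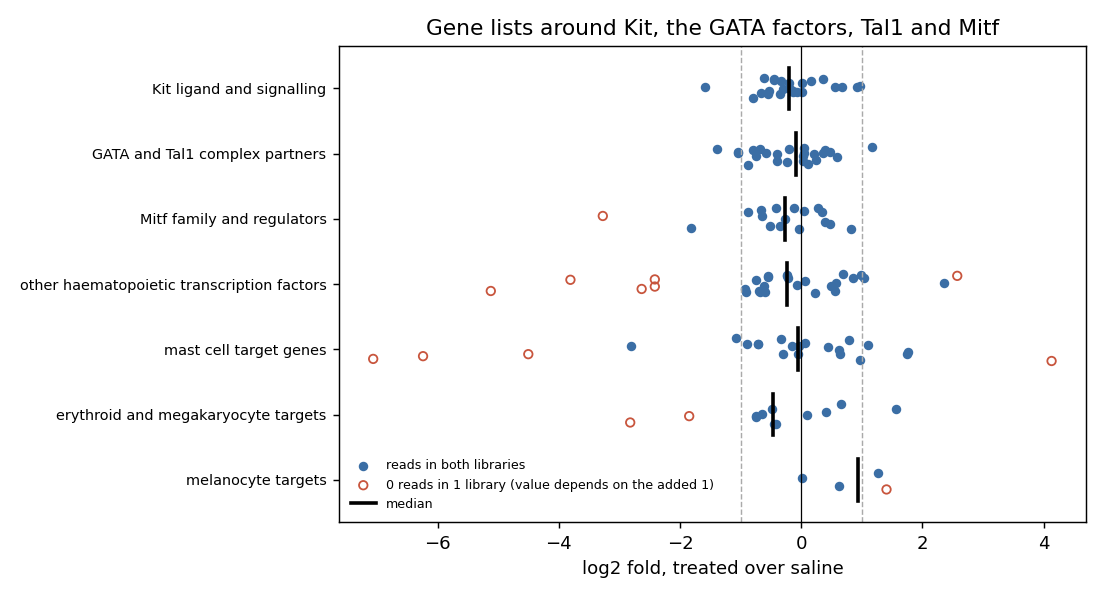
Log2 fold of each measured gene in 7 lists around the 5 genes, with filled points for genes with reads in both libraries, open points for genes with 0 reads in 1 library and black bars for list medians. The medians of the first 6 lists lie between -0.47 and -0.06, and the melanocyte list holds only 4 genes.

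The list of mast cell genes, not tested here as targets of Gata2 or Mitf, went both ways. Of its 23 measured genes, 4 were at least 2-fold higher and 5 at least 2-fold lower, near the 12.1% and 19.1% of all symbols, and the median log2 fold was -0.06. The 4 higher ones, named after their values were seen because the count is small, were the vesicle GTPase gene Rab27b at 1.76 (322 against 180 reads), the protease genes Cpa3 at 1.74 (interval 1.47 to 2.02) and Mcpt1 at 1.11 (interval 0.77 to 1.46), and Gzmb, with 10 treated and 0 saline reads, at least 6.35-fold higher. Among the lower ones, Il13 was at -2.81 and Hdc, the histamine-forming enzyme, at -1.07 (interval -1.19 to -0.95), also named after their values were seen. The Mcpt1 interval held 1 and the Hdc interval held -1, so the reads do not fix their side of 2-fold. Ndst2, the sulfotransferase of mast cell heparin, had 0 treated and 153 saline reads, at least 26.8-fold lower. The cytokine Il4 and the protease gene Mcpt8l3 had 0 against 86 and 0 against 25 reads, at least 15.1-fold and 4.38-fold lower. Protease reads may be split between near-identical copies. The granule proteoglycan core Srgn was at 0.64 (interval 0.57 to 0.70), and Csf2rb, the shared receptor chain for interleukin-3, at -0.72 (interval -0.81 to -0.63).

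The last lists held genes listed as targets in the other lineages of these factors, likewise not tested here as targets. Among erythroid and megakaryocyte targets, 12 of 25 genes were measured. Of these, 1 was at least 2-fold higher and 2 at least 2-fold lower, beside 12.1% and 19.1% of all symbols. Both lower ones had 0 treated reads. Tfr2 was under 2-fold once the floor was used, and Gp9 had 3 saline reads, no more than the floor. The median log2 fold of the list was -0.47, or -0.43 with Tfr2 alone at its floor. The transferrin receptor Tfrc was the higher one at 1.56 (interval 1.44 to 1.67), the integrin Itgb3 was at -0.75 (interval -0.89 to -0.62), and Tfr2 had 0 treated and 7 saline reads, with an upper limit of 0.40 that fixes no direction. Of 13 melanocyte targets of Mitf 4 were measured, 2 of them at least 2-fold higher (12.1% of all symbols were), 1 of these on a single read, with a median of 0.94. Slc24a5, a melanosome exchanger, was at 1.27 (interval 0.48 to 2.16, 30 against 23 reads), Gpnmb at 0.62 and Rab38 at 0.02.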

How the data were processed

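RNA of 1 saline and 1 treated culture was sequenced. Per the submitters' processing notes the tools were DESeq 1.22.1, Cuffnorm, STAR 2.5 and FastQC, with no roles stated, and the sources used here name no build or annotation. The authors deposited 1 log2 value per transcript and library. On the linear scale, less the added 1, 100% of values were whole multiples of 1 step per library (tolerance 1e-06 reads), giving read counts and size factors of 1.15 (saline) and 0.605 (treated). The authors' deposited p-values were used only as listed. A further 4 columns that repeat these values were not used.

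Transcripts were summed by symbol. A difference was counted at a log2 fold of at least 1 with a level of at least 1 in at least 1 library. Genes at 0 reads were set against a floor of 3 reads, a level of 2.60 in the saline and 4.95 in the treated library. List medians used this floor only where the other library had more than 3 reads. The 5 genes and the lists were chosen with earlier results of these data known. In 7 lists with 177 genes, 132 matched by symbol and 1 (Kars) by a RefSeq synonym. Named genes are the 5 members, the 3 largest folds at a level of at least 5 and the 2 highest means per list, and the 2 nearest symbols per member; others are said to be chosen otherwise. Some genes that this rule takes are not reported here.

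Alternatives were 2 other pseudocounts, 3 rescalings, the highest transcript alone, protein coding transcripts only and 3 other filters. Poisson counts were simulated for 15409 symbols of this comparison, with 200 symbols at a mean level of at least 50 changed by a log2 fold of 1.5. Of the changed symbols 97% passed the rule, and 95.8% of the intervals checked held the true ratio. Symbols with few simulated reads were left out of the interval check, and the simulation held no spread between cultures. Matplotlib 3.10.9, SciPy 1.17.1, pandas 2.3.3, NumPy 2.4.6 and Python 3.11.15 were used.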

Additional observations from a re-analysis of the deposited data

How the results depend on the processing

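The folds of the 5 gene sums kept their sign and stayed within 2-fold under the other pseudocounts, the 3 rescalings and the protein coding transcripts alone. With library totals made equal, Kit was at -0.26, outside its counting interval. With the transcript of highest mean level alone, Kit was at -0.33, Tal1 at -0.73 and Mitf at 1.92, past 2-fold, because that choice drops the transcript that differs the other way. The transcript folds kept their direction too: over the pseudocounts and rescalings the Mitf transcripts ranged from 1.86 to 1.96 and from -2.09 to -1.95, and the minor Tal1 transcript from 2.55 to 2.84. The counts of symbols past 2-fold depended on low counts. The 1826 higher symbols became 1023 with a pseudocount of 5 and 707 at a level of at least 50. The 2876 lower ones became 1650 with a pseudocount of 5, 1894 at a level of at least 5 and 813 at a level of at least 50. Depth limits Gata1 and Mitf most, with 208 and 172 treated reads. No paired analysis was possible because each group has 1 library, and no library could be left out.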
